A study of Mus musculus with 2 samples.

Results

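Ccl3 and Ccl4 producing microglia were the cells of this study that carried at least 5 UMIs of Ccl3 and Ccl4 together, and there were 77 of them among 20222 cells. A UMI is a unique molecular identifier, a tag that marks 1 captured RNA molecule. The cells came from the hypothalamus of young wild-type mice, several of which were pooled, 20 hours after injection of plasma protein that carried a dye. Fluorescence sorting split the microglia into cells without dye (plasma-negative) and cells with dye (plasma-positive), and each sort gave 1 droplet library of 3' transcript ends. Wild-type genotype, injection and pooling were shared by both groups, and no uninjected animals were among the samples. Filters of 500 UMIs or more, 300 genes or more and no more than 10% mitochondrially encoded UMIs left 9860 plasma-negative and 10362 plasma-positive cells. Of these, 24 and 53 were producing cells, and 9418 and 9825 cells with 0 UMIs of both genes served as the comparison (zero cells). Measured counts of Ccl3 and Ccl4 chose the producing cells, so the levels of these genes are described and not tested. With 1 library per sort no difference has a replicate check, no p-value was computed, and every interval is a 95% interval for counting error only, without the spread between cells, mice or sorts.

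Ccl3 and Ccl4 encode the secreted chemokines MIP-1 alpha and MIP-1 beta, which attract monocytes, T cells and other leukocytes through chemokine receptors on those cells, Ccr1 among them for Ccl3. In macrophages and microglia both genes are known to be switched on within hours of inflammatory signals through NF-kB, often together with Tnf, other chemokines and immediate early genes such as Atf3 and Egr1. Immediate early genes are also known to be induced while tissue is dissociated.

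Ccl3 (ENSMUSG00000000982) and Ccl4 (ENSMUSG00000018930) are neighbouring protein-coding genes on chromosome 11, at chr11:83647844-83649355 on the minus strand and chr11:83662584-83664683 on the plus strand in GENCODE M21 (GRCm38). The 250 bases before the RefSeq start (GRCm38.p6) are shown for Ccl3, the gene that defines these cells, and for Tnf and Nfkbia, which stand for the cytokine and NF-kB genes described below. They lie at chr11:83649379-83649628, chr17:35202008-35202257 and chr12:55492648-55492897, all on the minus strand. Each is written 5′ to 3′, and capitals mark matches to an NF-kB type motif (its first 3 bases G and its last 2 bases C, with any 5 bases between), to the AP-1 motif TGANTCA, or to the core promoter motif TATAAA, searched on both strands.
Ccl3: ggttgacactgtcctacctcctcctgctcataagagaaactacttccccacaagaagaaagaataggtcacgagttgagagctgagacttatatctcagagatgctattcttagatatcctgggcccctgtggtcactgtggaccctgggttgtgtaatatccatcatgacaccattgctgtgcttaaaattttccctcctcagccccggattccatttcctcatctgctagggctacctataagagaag
Tnf: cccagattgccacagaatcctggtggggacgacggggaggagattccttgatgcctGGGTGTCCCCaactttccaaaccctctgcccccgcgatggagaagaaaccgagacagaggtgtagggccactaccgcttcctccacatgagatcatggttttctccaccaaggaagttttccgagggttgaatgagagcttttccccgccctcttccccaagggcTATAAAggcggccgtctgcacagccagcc
Nfkbia: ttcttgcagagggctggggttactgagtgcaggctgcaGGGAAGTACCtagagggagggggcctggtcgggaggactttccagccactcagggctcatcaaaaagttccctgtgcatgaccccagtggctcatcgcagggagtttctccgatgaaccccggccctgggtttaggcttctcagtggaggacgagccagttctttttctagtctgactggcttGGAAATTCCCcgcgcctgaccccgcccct
The Ccl3 window held no match to any of the 3 motifs, which says only that these letters are not in these 250 bases. The Tnf window held 1 NF-kB type match and 1 TATAAA match, and the Nfkbia window held 2 NF-kB type matches. Among the 67 genes named by the rules of this report, 49 had a RefSeq window, and 6 of those had several. Counted by gene, with a match in any of its windows, 34 (69.4%) held the NF-kB type motif, against 48.7% of all 27025 genes with a window. TGANTCA stood in 12 (24.5%) against 7.82% of all genes, and TATAAA in 9 (18.4%) against 14.3%. Counted by window, the shares were 62.1%, 20.7% and 15.5% of 58 windows, against 45.8%, 6.75% and 12.4% of all 32851. The named genes were chosen from measured values and, in part, from lists of NF-kB, chemokine and cytokine genes. They include genes higher and genes lower in producing cells, so the shares are a description only. A match is a description of letters, not a binding site.

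The producing cells carried the label's cell type in their RNA. Of 11 microglia markers, such as P2ry12, Tmem119, Cx3cr1 and Sall1, a median of 10 were detected per producing cell in either library, against 10 and 11 in plasma-negative and plasma-positive zero cells. In each library 1 producing cell had under 5 of them: the plasma-negative cell had 4 and the plasma-positive cell 1. Of 116 markers in 13 lists of other cell types, 8 and 20 had a UMI in producing cells, summing to 149 CPM (counts per 1000000 UMIs) in the plasma-negative and 214 CPM in the plasma-positive library, against 246 and 252 CPM in zero cells. Lists for neutrophils, T or NK cells, mast cells or basophils, mural cells or fibroblasts and erythroid cells were at 0 UMIs in the producing cells of both libraries. No producing cell had more than 2 markers of any list of other types. Among the cells with the highest doublet scores, 778 plasma-negative and 859 plasma-positive cells, were 2 and 0 producing cells.

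Producing cells made up 0.243% of the plasma-negative cells (exact binomial interval 0.156 to 0.362) and 0.511% of the plasma-positive cells (0.383 to 0.669). The plasma-positive library was deeper, with a median of 3753 UMIs per cell against 3270.5. With every cell thinned to 1000 UMIs, 0.320% of 9064 plasma-negative cells (0.214 to 0.459) and 0.400% of 9759 plasma-positive cells (0.284 to 0.546) kept at least 2 summed UMIs, and the intervals overlapped. At 5 or more UMIs after thinning, the shares were 0.0993% (0.0454 to 0.188) and 0.236% (0.149 to 0.353). Cells with any UMI of Ccl3 or Ccl4 were more common, at 4.48% and 5.18% unthinned and 1.62% and 1.93% after thinning. These cells hold no type that should lack the genes entirely, so the part of free RNA in the cells with 1 or 2 UMIs was not tested. Producing cells were deeper than zero cells, with medians of 4676 against 3250 UMIs in the plasma-negative and 5805 against 3717 in the plasma-positive library. The median mitochondrial share was 1.04% against 1.08% in the plasma-negative and 1.87% against 1.27% in the plasma-positive library.

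Transcripts of the gene pair were concentrated in few cells. The 24 plasma-negative producing cells held 730 of the library's 1284 Ccl3 and Ccl4 UMIs (56.9%), and the 53 plasma-positive cells held 2215 of 2816 (78.7%). Counts per producing cell ran from 5 over a median of 13.5 to 139 in the plasma-negative library and from 5 over 16 to 320 in the plasma-positive library. Just outside the threshold, 6 plasma-negative and 8 plasma-positive cells had 4 UMIs, and just inside it 3 and 6 cells had 5. At the upper end, 11 and 24 cells had 25 or more UMIs and held 48.6% and 69.0% of all Ccl3 and Ccl4 UMIs of their libraries. Of the other producing cells, 10 plasma-negative cells had 5 to 9 UMIs and 3 had 10 to 24, as did 17 and 12 plasma-positive cells.

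The share of Ccl4 in the pair's UMIs is a description, since the same counts chose and ordered the cells. Ccl4 gave 43.8% (39.2 to 48.5) and 42.8% (38.5 to 47.3) of the pair's UMIs in plasma-negative and plasma-positive cells with 1 or 2 UMIs. In producing cells it gave 65.2% (61.6 to 68.7) and 72.1% (70.2 to 74.0), and in cells with 25 or more UMIs 67.6% and 72.1%. Between these it gave 52.9% (40.4 to 65.2) and 63.8% (53.9 to 73.0) at 5 to 9 UMIs, and 47.4% (31.0 to 64.2) and 77.7% (70.6 to 83.8) at 10 to 24. In the plasma-negative library the intervals at 5 to 24 UMIs overlapped that of cells with 1 or 2 UMIs, and the higher share of producing cells came from the 11 cells with 25 or more. Ccl3 stood at 1807 CPM in plasma-negative and 1891 CPM in plasma-positive producing cells, and Ccl4 at 3387 and 4887 CPM. More Ccl4 than Ccl3 was counted in 15 of 24 and 44 of 53 cells. Cells with 5 or more UMIs of 1 gene and none of the other existed on both sides: 1 plasma-negative and 8 plasma-positive cells had no Ccl3, and 2 and 3 had no Ccl4. The counts are of 3' ends and not corrected for capture, so the share describes UMIs and not protein.

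**Figure D1:**
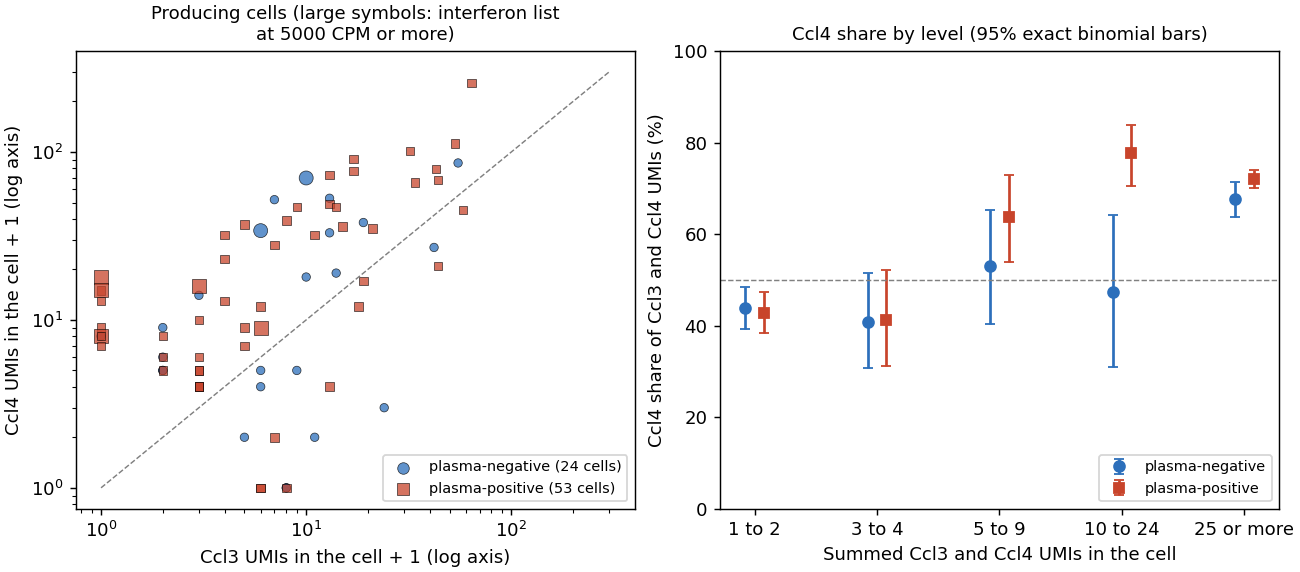
Left, Ccl3 and Ccl4 UMIs plus 1 in each of the 24 plasma-negative (blue circles) and 53 plasma-positive (red squares) producing cells on log axes, with a dashed line of equality and large symbols for cells high in interferon genes; right, the Ccl4 share of the pair's UMIs in percent by summed UMIs of the cell, with 95% exact binomial bars. Most strong cells lie above the line, and the share is 43.8% and 42.8% at 1 to 2 UMIs against 67.6% and 72.1% at 25 or more.

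Against zero cells of the same library, 56 of 1823 genes compared (3.07%) were at least 2-fold higher in producing cells of both libraries, and 29 (1.59%) at least 2-fold lower. Genes were compared at 100 CPM or more in 1 class of each library, Ccl3 and Ccl4 left out. By library, 6.7% and 4.9% of genes were 2-fold higher and 4.78% and 4.7% lower in plasma-negative and plasma-positive cells. In an alternative chosen after seeing the data, the producing cell richest in each gene was left out of each library. Then 29 of the 56 genes stayed 2-fold higher, and the lower count was 73. No zero cell was left out, so this setting tends to lower ratios by its design. The median log2 ratio of genes went from 0.03 to -0.20 in plasma-negative and from -0.02 to -0.17 in plasma-positive cells. These counts alone therefore do not show how far single cells weighed on the lists. Lower genes could rest on few UMIs, as Pld1, a phospholipase gene, did with 3 and 14.

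**Figure D2:**
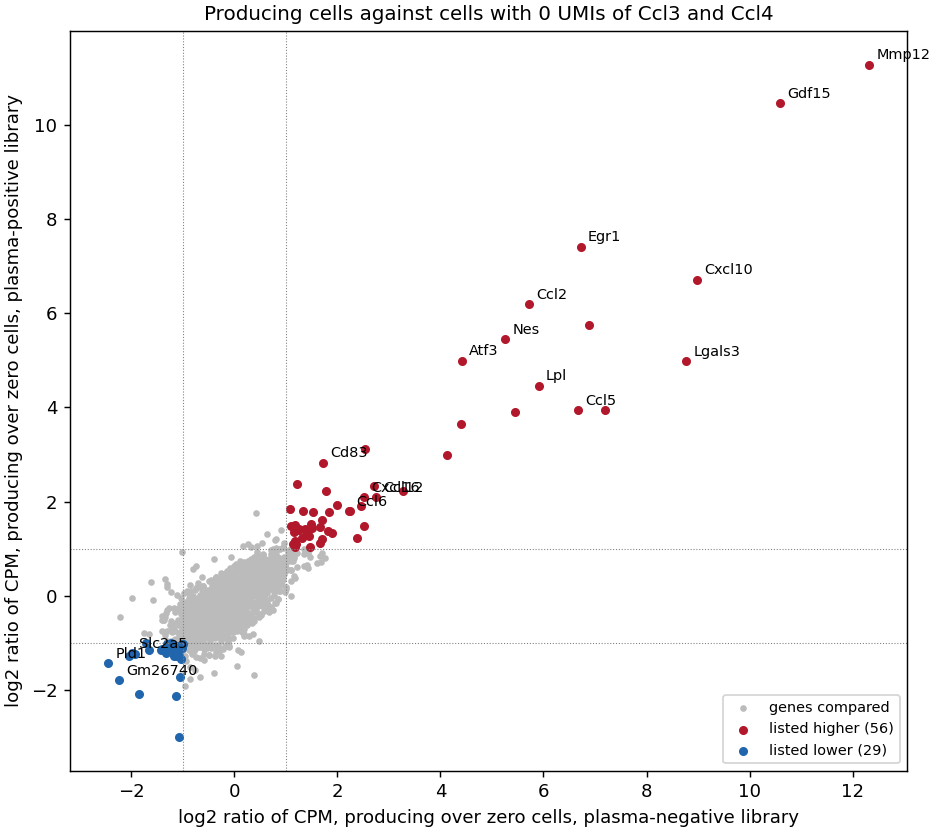
Each point is a gene, with the log2 ratio of CPM in producing over zero cells in the plasma-negative library on the x axis and in the plasma-positive library on the y axis; dotted lines mark 2-fold, red the 56 genes listed higher and blue the 29 listed lower. The farthest points, Mmp12 and Gdf15, rest on 3 and 2 plasma-negative cells, while Atf3 and Lpl were each found in 12.

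Several other chemokines were higher together with the pair. Of 15 partner chemokines listed, 8 had at least 10 CPM in 1 class of the plasma-negative library and 11 in 1 class of the plasma-positive library. Of these, 8 and 10 were higher beyond counting error, where 7.85% and 11.3% of all genes compared at that level were higher. Their median log2 ratios were 4.23 and 3.93, against -0.09 and -0.13 over all genes compared. Cxcl2, Cxcl10, Ccl2 and Ccl5 passed the plasma-negative minimum only through producing cells, at 0, 2.43, 2.58 and 1.81 CPM in zero cells. Members low in both classes dropped out, so the counts and medians lean upward by design. The same minimum holds for the lists below. Because the partner list was also chosen with earlier results of these data known, it is a description. Ccl2, a monocyte attractant, stood at 135 CPM in 6 of 24 plasma-negative producing cells against 2.58 CPM in zero cells, and at 554 CPM in 22 of 53 plasma-positive cells against 7.60 CPM. The log2 ratios were 5.71 (4.91 to 6.44) and 6.19 (5.91 to 6.46). In zero cells 0.711% and 1.79% carried a Ccl2 UMI, and after thinning 17.4% and 22.6% of producing cells did against 0.209% and 0.618% of zero cells.

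Ccl12, a related Ccr2 ligand, was at 1138 and 1576 CPM in producing cells against 169 and 371 CPM in zero cells, and was found in 16 of 24 and 39 of 53 cells. Its log2 ratios were 2.75 and 2.09, and 2.03 and 1.84 without the richest cell of each library. Ccl6 was 4.65-fold and 3.48-fold higher and was found in 15 of 24 and 41 of 53 cells. Cxcl16, which exists as a membrane-bound and a shed chemokine, was 5.73-fold and 4.27-fold higher in 13 and 32 cells. Ccl9 was 3.19-fold higher in plasma-negative and 1.64-fold in plasma-positive cells. For the remaining chemokines 1 or a few cells held most UMIs: Cxcl2 came from 1 cell in each library (13 and 94 UMIs), Ccl5 from 1 plasma-negative cell with 26 UMIs, and 170 of 173 plasma-negative Cxcl10 UMIs from 1 cell. Ccl5, Ccl9 and Ccl6 are also the genes that precede Ccl3 and Ccl4 in RefSeq order on chromosome 11, and all 3 were higher beyond counting error in both libraries. Of the next genes on the other side, Wfdc17 was at 14.2 and 33.7 CPM in producing cells against 1.78 and 3.85 CPM, from 2 and 11 UMIs, with an interval above 0 in the plasma-positive library.

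Inflammatory cytokines were higher at lower levels. Tnf, a main inflammatory cytokine, had a UMI in 4 plasma-negative producing cells of 24 and 17 plasma-positive ones of 53, at 71.2 and 104 CPM against 4.45 and 4.54 CPM in zero cells. Its log2 ratios were 4.0 (2.91 to 4.92) and 4.52 (3.94 to 5.05). Csf1, a growth factor for macrophages, was 7.56-fold and 10.0-fold higher in 5 and 19 cells. Il1a was 1.76-fold and 2.0-fold higher in 12 and 23 cells. Il1b was at 21.3 CPM from 3 UMIs in the plasma-negative library and at 190 CPM from 62 UMIs in 10 cells of the plasma-positive library, against 1.60 and 2.86 CPM in zero cells. Tgfb1, which encodes an anti-inflammatory cytokine, had log2 ratios of -0.42 (-0.95 to 0.06) and -0.18 (-0.49 to 0.12). Of 8 and 7 cytokine genes compared, 5 and 6 were higher and 0 lower beyond counting error. The shares over all genes were 7.85% and 11.3% higher and 5.22% and 11.9% lower.

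Of 28 and 26 NF-kB factor and feedback genes compared, 16 and 21 were higher and 1 and 0 lower beyond counting error. Over all genes, 7.85% and 11.3% were higher and 5.22% and 11.9% lower. The list's median log2 ratios were 1.16 and 1.20. Cd83, an activation marker, was at 213 and 459 CPM in producing cells against 65.1 and 64.7 CPM in zero cells, and was found in 14 of 24 and 39 of 53 cells. After thinning, 26.1% and 41.5% of producing cells carried a Cd83 UMI against 6.13% and 5.96% of zero cells. Plaur, the urokinase receptor, was 16.1-fold and 11.7-fold higher in 7 and 14 cells, and Bcl2a1d, a survival gene, 6.45-fold and 6.54-fold in 5 and 18 cells. Bcl2a1d, Bcl2a1a and Bcl2a1b are near-identical copies whose reads the counting may have split unevenly. Nfkbia, the inhibitor that NF-kB induces, was 3.37-fold and 1.75-fold higher, but 45 of its 70 plasma-negative UMIs lay in 1 cell, and without the richest cells its log2 ratios were 0.34 and 0.63. The factor genes themselves differed little: Nfkb1 had log2 ratios of 0.21 (-0.44 to 0.78) and 0.46 (0.08 to 0.82), and Rel -0.26 (-0.99 to 0.39) and 0.26 (-0.12 to 0.62).

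**Figure D3:**
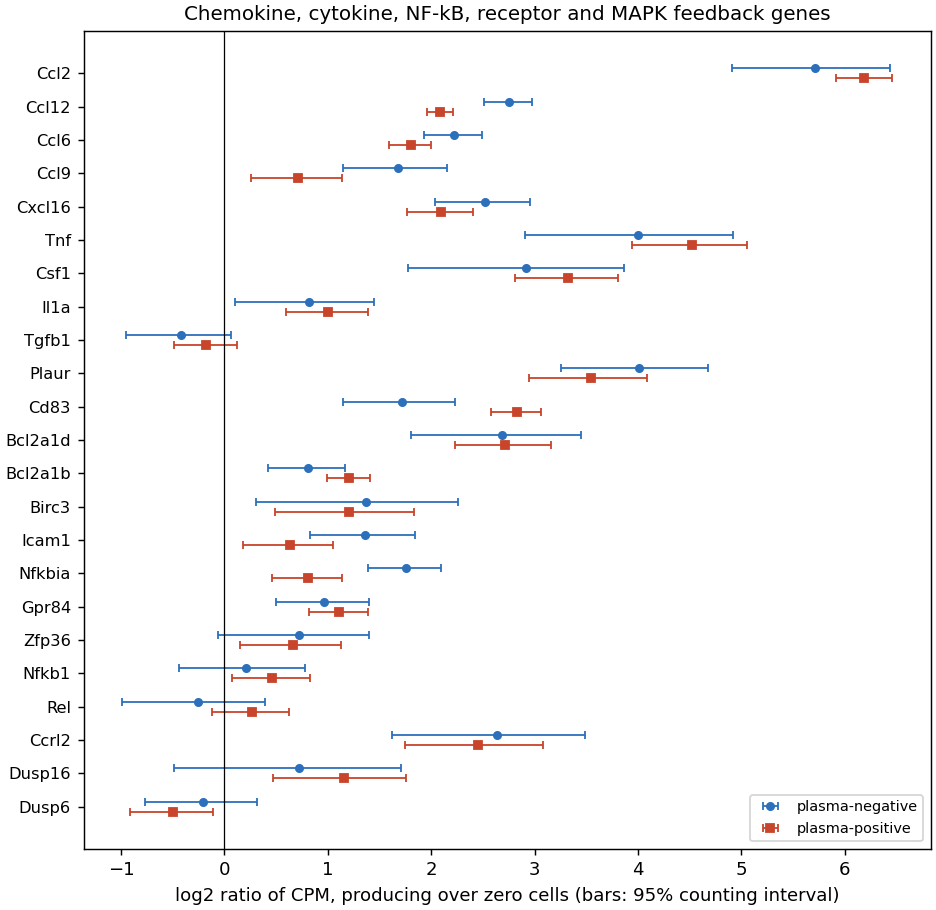
Log2 ratio of CPM in producing over zero cells for chemokine, cytokine, NF-kB, receptor and MAPK feedback genes, plasma-negative as blue circles and plasma-positive as red squares, with 95% counting intervals. Ccl2, Tnf and Plaur lie far to the right in both libraries, and the intervals of Rel include 0 in both.

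Ccrl2, an atypical receptor that binds chemerin, was 6.22-fold and 5.49-fold higher in 6 and 14 producing cells. Ccr1, a receptor of Ccl3, was near the detection limit, at 1 and 5 UMIs. Of 7 and 6 MAPK feedback genes compared, 1 and 3 were higher and 0 and 1 lower beyond counting error. Over all genes, 7.85% and 11.3% were higher and 5.22% and 11.9% lower. Spred1 had log2 ratios of 0.24 (-0.47 to 0.87) and 0.19 (-0.28 to 0.63), Dusp6 -0.20 (-0.77 to 0.31) and -0.50 (-0.91 to -0.11), and Dusp16 0.72 (-0.49 to 1.71) and 1.15 (0.47 to 1.76).

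Immediate early genes were higher beyond counting error in 12 of 18 and 12 of 17 compared, and 1 was lower beyond it in each library. Over all genes, 7.85% and 11.3% were higher and 5.22% and 11.9% lower. The list's median log2 ratios were 1.17 and 1.09. Atf3, a stress-induced transcription factor, was 21.3-fold and 31.8-fold higher, at 441 and 575 CPM against 20.7 and 18.1 CPM, and was found in 12 of 24 and 30 of 53 cells. Egr1 was at 185 and 321 CPM against 1.75 and 1.89 CPM, a 106-fold and 170-fold difference, in 7 and 15 cells. Ier2 was at 85.4 and 91.8 CPM against 14.0 and 13.1 CPM, and Junb at 470 and 441 CPM against 214 and 206 CPM. Fos had 2 UMIs in the producing cells of each library. Klf6 was 2.15-fold higher in plasma-negative producing cells and at 0.995 times the zero-cell level in plasma-positive ones. The part of tissue dissociation in these levels was not tested.

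Beyond the fixed lists, the rule on size named further genes. Nes, which encodes the intermediate filament nestin, was 38.3-fold and 43.5-fold higher, in 8 and 18 cells. Lpl, lipoprotein lipase, was at 1487 and 557 CPM against 24.8 and 25.3 CPM, in 12 and 21 cells, of which 6 plasma-negative cells held 197 of the library's 209 producing-cell UMIs. After thinning, 30.4% and 24.5% of producing cells carried an Lpl UMI against 2.20% and 2.20% of zero cells. Lgals3, galectin-3, was at 427 and 135 CPM against 0.983 and 4.26 CPM, in 7 and 10 cells. Cd72 was 17.4-fold and 7.93-fold higher, Glipr1 5.76-fold and 8.70-fold, Capg, an actin-capping protein, 9.65-fold and 4.65-fold, and Cstb, cystatin B, 6.57-fold and 5.03-fold. Cstb was found in 13 and 32 cells, and its log2 ratios without the richest cells were 2.48 and 2.10. The matrix metalloproteinase gene Mmp12 and the stress cytokine gene Gdf15 had the highest log2 ratios, 12.32 (9.69 to 17.68) and 11.28 (9.66 to 13.59) for Mmp12 and 10.59 (8.84 to 12.99) and 10.46 (9.49 to 11.63) for Gdf15. They came from few cells: 3 and 3 for Mmp12, with 55 of 62 plasma-positive UMIs in 1 cell, and 2 and 5 for Gdf15, with 99 of 106 in 1 cell.

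Of 18 homeostatic microglia genes compared, 17 were lower beyond counting error in the plasma-negative and 16 in the plasma-positive library. In either library 0 were higher beyond it, and 5.22% and 11.9% of all genes were lower. Their median log2 ratios were -0.55 and -0.66. Cx3cr1, the fractalkine receptor, stood at 3899 and 3403 CPM in producing cells against 6559 and 5770 CPM in zero cells, and was detected in 24 of 24 and 52 of 53 cells. P2ry12, a purine receptor of resting microglia, was at 1558 and 1340 CPM against 2844 and 2688 CPM. Tmem119 was at 761 and 490 CPM against 1281 and 1208 CPM. Slc2a5, a fructose transporter, was among the genes listed lower, at 78.3 and 138 CPM against 309 and 321 CPM. Others by the same rule were Pid1, Gpr155, Cysltr1, Clec4a2 and Akr1b10, between 0.241-fold and 0.451-fold, and the non-coding RNAs or unnamed loci A830008E24Rik, Gm26740 and B430010I23Rik.

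Disease-associated microglia genes were higher beyond counting error in 21 of 24 and 23 of 24 compared, and 0 were lower beyond it. Over all genes, 7.85% and 11.3% were higher and 5.22% and 11.9% lower. The list's median log2 ratios were 1.71 and 1.77. Cd63, a lysosomal membrane protein, was at 1359 and 1001 CPM against 367 and 399 CPM, in 21 and 49 cells, and Cd9 at 2946 and 2531 CPM against 1280 and 1182 CPM, in 24 and 51 cells. Spp1 was counted in 2 and 6 producing cells only and Cst7 in 3 and 10. Glycolysis genes were higher beyond counting error in 8 of 14 and 9 of 14, with 1 lower beyond it in each library. Gapdh was at 1217 and 1197 CPM against 455 and 478 CPM, and Ldha, lactate dehydrogenase, at 285 and 291 CPM against 99.6 and 107 CPM. Among receptors of innate immunity, Tlr2 had log2 ratios of 1.70 and 1.61. Of 14 toll-like receptor and adaptor genes in each library, 2 and 3 (14.3% and 21.4%) were higher and 0 and 2 lower beyond counting error. The list's median log2 ratios were -0.28 and -0.32. Cytosolic ribosomal protein genes were higher beyond counting error in 61 and 73 of 80, with small median log2 ratios of 0.37 and 0.39. Mitochondrially encoded genes were so in 4 and 12 of 13. Producing cells were also deeper than zero cells. With zero cells weighted to the depth of producing cells, 163 recomputed values of all kinds stayed within the limits given below and 4 moved. The part of depth in the ribosomal and mitochondrial shifts was not tested on its own. Heat shock genes had medians of 0.65 and 0.52 and MHC class I genes 0.46 and 0.28. Medians were 0.95 and 0.75 for p53 targets and 1.46 and 1.94 for cell cycle genes. Beyond counting error, 7 and 6 of 10 heat shock and 5 of 9 and 4 of 10 MHC class I genes were higher. So were 4 and 5 of 9 p53 targets and 2 of 8 and 10 of 12 cell cycle genes. In these lists 0 were lower beyond it. MHC class II genes had medians of -0.00 over 3 genes and 2.64 over 5. Of these, 1 and 3 were higher and 1 and 2 lower beyond counting error. The summed MHC class II list had log2 ratios of -0.26 and 0.58.

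Interferon genes were higher on average through few cells. Of 17 and 20 type I interferon response genes compared, 13 and 17 were higher beyond counting error, against 7.85% and 11.3% of all genes. The list's median log2 ratios were 2.71 and 2.45. Ifit3 was 21.1-fold and 12.6-fold higher and Rsad2 118-fold and 53.9-fold, but in 4 and 5 and in 2 and 4 cells. At 5000 CPM or more of the list, a limit set after the values were seen, lay 2 plasma-negative and 5 plasma-positive producing cells, which held 65.3% and 76.9% of the interferon UMIs of their class. Such cells made up 8.33% (1.03 to 27.0) and 9.43% (3.13 to 20.7) of producing cells, against 0.520% (0.385 to 0.687) and 2.60% (2.29 to 2.93) of zero cells. Their chemokine pair was mostly Ccl4, at 102 of 116 UMIs in the plasma-negative and 61 of 68 in the plasma-positive library, and 3 of the 5 plasma-positive cells had no Ccl3. The 5 plasma-positive cells also held 489 of 1189 Apoe, 102 of 105 Ccl5 and 166 of 193 Cxcl10 UMIs.

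The gene groups differed in how they followed the level of the pair. With cells ordered by summed UMIs, the plasma-negative NF-kB list was at 1495 CPM in zero cells and 2058 CPM at 3 to 4 UMIs. It was at 1941 CPM at 5 to 9, 1957 CPM at 10 to 24 and 4594 CPM at 25 or more. In that last bin 1 of the 11 cells, with 4 microglia markers, held 128 of the 308 NF-kB UMIs. In the same order the plasma-positive library had 1451, 2075, 2325, 3049 and 4500 CPM. In zero cells, at 3 to 4 and at 25 or more UMIs, plasma-negative Atf3 was at 20.7, 90.7 and 641 CPM. The plasma-positive Atf3 values were 18.1, 104 and 1163 CPM. Immediate early genes stayed between 1854 and 3051 CPM below 25 UMIs in both libraries and stood at 4340 and 5843 CPM at 25 or more. Homeostatic genes went the other way, from 90079 to 59135 CPM and from 91985 to 75598 CPM. The interferon list differed between the libraries. In the plasma-negative library it went from 442 CPM in zero cells over 426 CPM at 3 to 4 UMIs to 2670 CPM at 25 or more. There 1 of the 11 cells held 123 of the 179 interferon UMIs. In the plasma-positive library the list had no such order. It was at 779 CPM in zero cells, 8897 CPM in the 12 cells with 10 to 24 UMIs and 510 CPM in the 24 cells with 25 or more. The richest of the 12 cells held 292, 163, 91 and 69 of their 642 interferon UMIs. In cells with 25 or more UMIs its median log2 ratio in that library was -0.70, against 2.45 over all producing cells. Bins under 20 cells are thin, and these are all bins of 5 or more UMIs but the plasma-positive one at 25 or more.

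**Figure D4:**
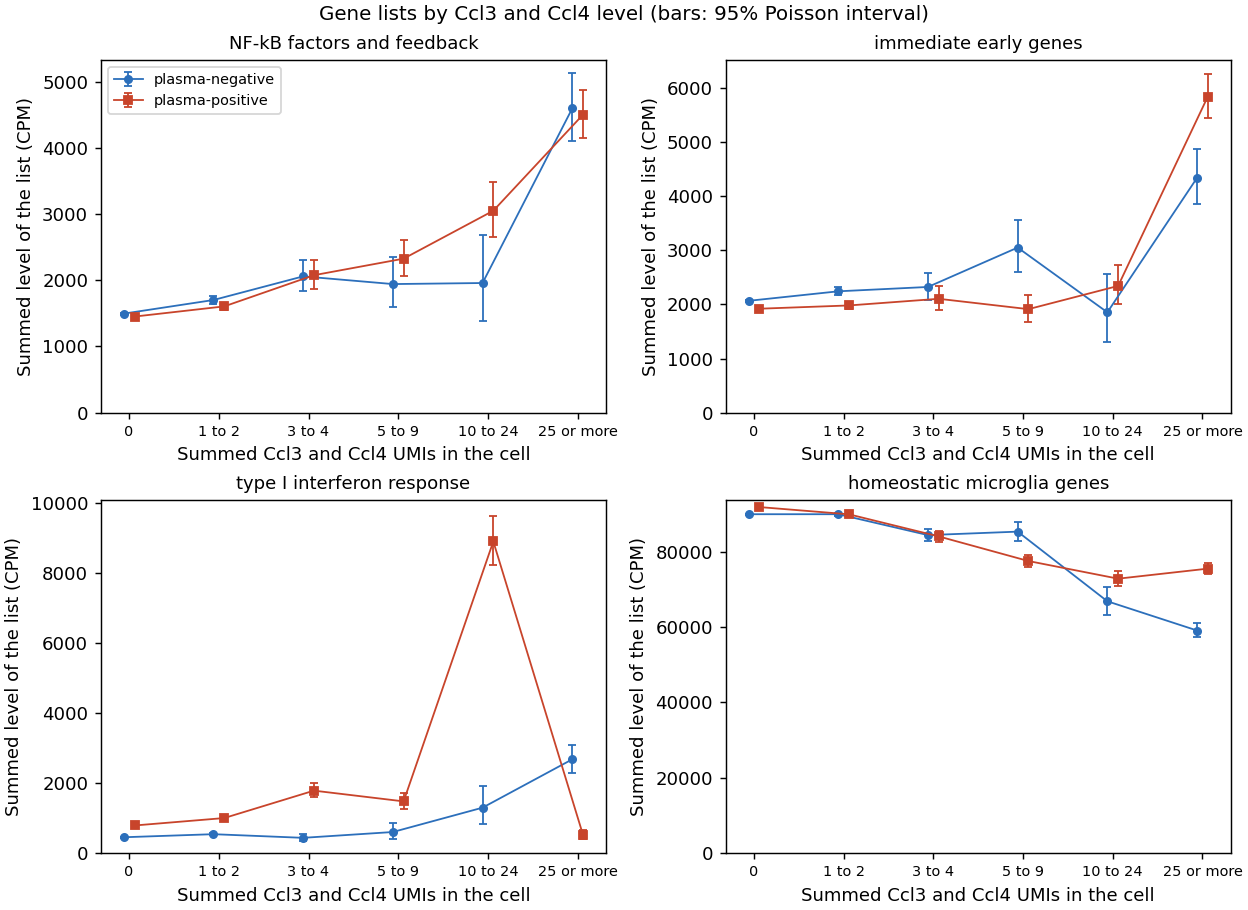
Summed level of 4 gene lists in CPM, by the summed Ccl3 and Ccl4 UMIs of the cell, plasma-negative in blue and plasma-positive in red, with 95% Poisson bars. NF-kB genes are highest at 25 or more UMIs in both libraries (4594 and 4500 CPM), and homeostatic genes are lower there than in zero cells. Of the 308 plasma-negative NF-kB UMIs in that bin, 128 lie in 1 cell. The interferon list is highest at 25 or more UMIs in plasma-negative cells (2670 CPM). In plasma-positive cells it is highest, at 8897 CPM, at 10 to 24 UMIs, where 1 of 12 cells holds 292 of 642 interferon UMIs.

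The last comparison set plasma-positive against plasma-negative producing cells, the study's sort. Of 835 genes with 200 CPM or more in 1 library, 15 (1.8%) were at least 2-fold higher and 11 (1.32%) lower in plasma-positive producing cells, against 2 (0.263%) and 0 of 761 in zero cells. The producing cells numbered 24 and 53, so their values rest on far fewer UMIs. The highest ratio was that of Apoe, which encodes a lipid carrier, at 3639 CPM in plasma-positive and 228 CPM in plasma-negative producing cells, with a log2 ratio of 4.0 (3.49 to 4.55) against 2.68 (2.64 to 2.72) in zero cells. Within plasma-positive producing cells Apoe was uneven: 27 of 53 cells carried a UMI and 348 of 1189 UMIs lay in 1 cell. The 9 cells with 10 or more Apoe UMIs held 1141 of the 1189. Ccl2 was higher by 2.03 on the log2 scale (1.56 in zero cells) and the interferon gene Ifi27l2a by 1.98 (2.14 in zero cells). Cd74, the MHC class II invariant chain, had a log2 ratio of 2.10 (1.21 to 3.15) against 0.20 in zero cells, with 44 of 110 plasma-positive UMIs in 1 cell.

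Other genes had a ratio between the sorts in producing cells that was nearer to 0, or of the other sign, in zero cells, and the difference between the classes was not tested. Hivep3, a zinc finger gene, was at 275 CPM in plasma-positive and 78.3 CPM in plasma-negative producing cells (log2 ratio 1.82, 0.91 to 2.87; -0.11 in zero cells). Rab10, a vesicle transport GTPase, had 1.41 (0.05 in zero cells) and Stmn1, stathmin, 1.64 (0.45 in zero cells), which was -0.32 in cells with 10 or more summed UMIs. Lpl was lower in plasma-positive producing cells, with a log2 ratio of -1.42 (-1.71 to -1.12) against 0.03 in zero cells. Lgals3 had -1.66 (-2.26 to -1.08) in producing cells and 2.12 (1.56 to 2.71) in zero cells, with 38 of its 60 plasma-negative producing-cell UMIs in 1 cell. Klhl24, Esd and Klf6 had -1.69, -1.26 and -1.22. Without the richest cell of each library these were -1.32, -0.17 and -1.19, so the Esd ratio rested largely on single cells. Cd83 was higher in plasma-positive producing cells, with a log2 ratio of 1.10 (0.53 to 1.72) against -0.01 (-0.09 to 0.07) in zero cells. Of genes with 10 CPM or more, 2.31% were higher and 3.32% lower beyond counting error between the sorts in producing cells. Mitochondrially encoded genes were higher beyond counting error in 12 of 13, with a median of 0.67 against 0.26 in zero cells. This stood alongside the medians of mitochondrial share given above, and the part of these genes in the other differences was not tested.

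**Figure D5:**
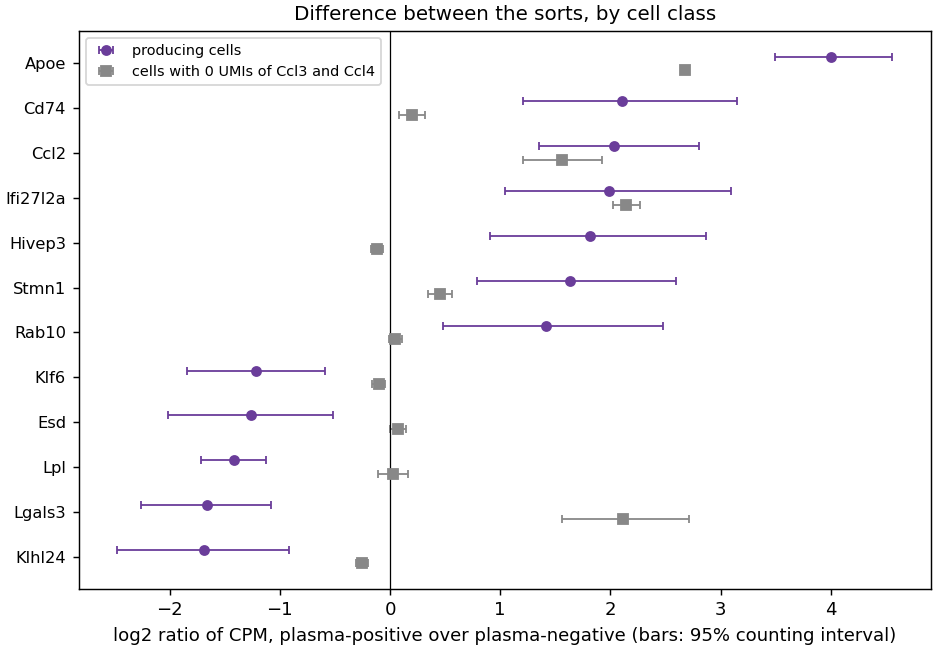
Log2 ratio of CPM, plasma-positive over plasma-negative, for the genes with the highest and lowest ratios in producing cells (purple circles), beside the same genes in zero cells (grey squares), with 95% counting intervals. Apoe, Ccl2 and Ifi27l2a are above 0 in both classes, and Lgals3 is below 0 in producing and above 0 in zero cells. Cxcl2, also among the highest in producing cells (1.64), is not shown. Plasma-negative zero cells had 0 of its UMIs, so its ratio in zero cells has no finite value.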

How the data were processed

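The authors deposited 1 matrix of raw UMI counts per gene and cell for each library, whole numbers with no normalization, from Chromium 3' v3.1 chemistry, per the labels' protocols. Cell Ranger 6.1.2 is named per the file headers and Cell Ranger 3.0.1 per the submitters' processing notes. The genome build, annotation and use of strand are not given in the sources used here. Barcodes were not used here, so cells shared between libraries were not counted.

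The libraries held 34534518 and 41984977 UMIs in kept cells. Counts were summed over the producing and the zero cells of each library and divided by the class total to give CPM, with no pseudocount (Python 3.11.15, numpy 2.4.6, scipy 1.17.1, pandas 2.3.3). Ratios carry exact conditional binomial, shares Clopper-Pearson and sums exact Poisson intervals at 95%, for counting error only. In simulated data with known folds, on 1730 and 1701 genes, 94.7% and 94.8% of the intervals covered the true ratio. Those counts were drawn as Poisson class sums without UMIs concentrated in single cells. The coverage therefore checks the computation only, not the intervals of genes whose UMIs lay in few cells. The class comparison needed a 2-fold difference in both libraries, and the sort comparison 200 CPM. Lists used members with 10 CPM in 1 class. A member low in zero cells could thus enter only where producing cells were high in it. Doublets were kept; Scrublet's automatic threshold (scanpy 1.11.5) marked 0 cells in either library and is taken as failed; the highest scores at 0.8% per 1000 cells were left out as an alternative.

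The genes named are Ccl3 and Ccl4, members of the chemokine, receptor, cytokine, NF-kB and MAPK lists with 50 CPM in producing cells of both libraries, the 15 highest and 10 lowest genes beyond them by the ratio nearer to 0, and the 8 highest and 5 lowest between the sorts. Genes of other lists and the neighbours of Ccl3 and Ccl4 that are named with values were chosen after their values were seen. The members and lists were chosen with earlier results of these data known. Some genes of these lists are not reported here.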

Additional observations from a re-analysis of the deposited data

Results flagged for a closer look

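These genes had intervals on opposite sides of 0 in 2 groups under the same comparison, and the difference itself was not tested. Hivep3 had a log2 ratio of producing over zero cells of -1.01 in the plasma-negative and 0.92 in the plasma-positive library, and of plasma-positive over plasma-negative of 1.82 in producing and -0.11 in zero cells. The remaining values are log2 ratios of plasma-positive over plasma-negative, first in producing and then in zero cells. Lgals3 had -1.66 and 2.12, Cybb, a subunit of the phagocyte NADPH oxidase, -0.83 and 2.43, and Cxcl10 -1.06 and 1.22. Capg had -0.73 and 0.33, Esd -1.26 and 0.073, and Ccl9 -0.85 and 0.10. Without the richest cell of each library, the ratio in producing cells was -0.17 for Esd and -0.84 for Lgals3. Taken gene by gene, the plasma-negative producing cell with the most UMIs of it held 38 of 60 for Lgals3, 19 of 29 for Cybb, 19 of 33 for Esd and 170 of 173 for Cxcl10, and whether these are the same cell was not examined.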

How the results depend on the processing

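No paired analysis was possible because there is 1 library per sort, and no replicate could be left out. Of 2739 recomputed values, 2364 stayed within the counting interval or within 1.5 times a count, 367 moved and 8 reversed, and 37 had no value. The share of producing cells was 0.538% and 0.782% (plasma-negative and plasma-positive) at 3 or more summed UMIs, 0.142% and 0.347% at 10 or more, and 0.112% and 0.232% at 25 or more. At 1000 CPM of the pair the plasma-negative share was 0.375%. Genes listed higher and lower against zero cells numbered 31 and 4 at 3 or more UMIs, 90 and 47 at 25 or more, 104 and 71 with a 50 CPM minimum and 26 and 9 with 200 CPM. Without each gene's richest producing cell, and with no zero cell left out, they numbered 29 and 73. The lower count was 68 after thinning and 44 as a mean over cells. Between the sorts, higher and lower genes numbered 8 and 3 at 3 or more UMIs, 30 and 45 at 10 or more, 44 and 71 at 25 or more, 96 and 173 after thinning, 43 and 62 with 100 CPM and 2 and 3 with 500 CPM. The lower count was 18 at 1000 CPM of the pair, 21 without high doublet scores, 25 as a mean over cells and 5 without each gene's richest cell. At 25 or more UMIs the plasma-positive log2 ratios over zero cells reversed for the interferon list (-0.70), Ccl5 (-0.49) and Ifi27l2a (-0.22). After thinning the plasma-positive Dusp16 ratio was -0.66, and at 3 or more UMIs the plasma-negative Hivep3 ratio was 0.13. Between the sorts Stmn1 was -0.32 at 10 or more UMIs, -0.35 at 25 or more and -0.0944 at 1000 CPM. The causes were not tested. Thinning moved the plasma-negative median of genes from 0.03 to 0.24. The 25 UMI limit, the 5-marker limit and the richest-cell setting were chosen after seeing the data. The depth of 140546 and 326759 UMIs in 24 and 53 producing cells limits every ratio above.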

Other observations

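Each library had 1 producing cell with under 5 of the 11 microglia markers, and it was the only producing cell there with a Cxcl2 UMI. The plasma-negative cell had 6332 UMIs, 4 markers, 23 Ccl3 and 2 Ccl4 UMIs, 13 Cxcl2 UMIs and 45 of the 70 Nfkbia UMIs of its class. The plasma-positive cell had 1626 UMIs, 1 marker, 42 Ccl3 and 78 Ccl4 UMIs and 94 Cxcl2 UMIs. With both left out, 52 and 24 genes were listed higher and lower against zero cells, 52 and 22 of them shared with the 56 and 29 above.

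Producing cells with 10 or more Lpl UMIs, a limit set after the values were seen, had a lower Ccl4 share of summed UMIs than their class. The 6 plasma-negative cells had 113 Ccl3 and 88 Ccl4 UMIs, a Ccl4 share of 43.8% (36.8 to 50.9) against 65.2% over all 24 cells. The 5 plasma-positive cells had 70 and 97 UMIs, a share of 58.1% (50.2 to 65.7) against 72.1% over all 53 cells. In this library 1 cell held 57 of the 70 Ccl3 and 44 of the 97 Ccl4 UMIs. More Ccl4 than Ccl3 was counted in 3 of the 5 cells, so the lower plasma-positive share rests largely on that cell.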
